A study of Homo sapiens with 40 samples.

Results

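Long intergenic noncoding RNAs are transcripts without a protein product whose genes lie between other genes, and those with no other name carry the symbol LINC and a number. The account covers 121 such genes that were expressed in lymphoma cell lines treated with GSK126. A gene was taken if its symbol is LINC followed by digits alone and its probe set names 1 gene. Its probe set with the highest mean had to lie above the array's median signal on at least 20 of the 40 arrays. Of 839 LINC genes on the array 121, or 14.4%, met this rule, and of all 19775 genes 57.7% met the same level rule. The array measured these 839 genes with 1083 probe sets. The members were thus selected on their measured signals, over both treatments, and their levels are given below as a description. All 121 members are annotated as lncRNA in the RefSeq gene table of assembly GRCh38.p14, and 51 lay above the median on all 40 arrays. The rule treated both treatments alike: 2 members were above the median on fewer than 10 of the GSK126 arrays and 4 on fewer than 10 of the DMSO arrays.

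The study used 10 established cell lines of diffuse large B-cell lymphoma, a tumour of mature B cells, cultured for 72 h with 500 nM GSK126 or with 0.1% DMSO as vehicle. GSK126 is a small molecule that blocks the enzyme EZH2. The labels give mutant EZH2 for 7 lines and wild type EZH2 for 3, with no allele named, and a growth IC50 for each line. The mutant lines and their growth IC50 values were Pfeiffer (28 nM), WSU-DLCL2 (134 nM), KARPAS-422 (232 nM), SU-DHL-10 (448 nM), SU-DHL-6 (582 nM), DB (861 nM) and SU-DHL-4 (4828 nM). The wild type lines were HT (516 nM), OCI-LY-19 (1019 nM) and Toledo (13786 nM). Each line and treatment has 2 arrays. The labels call a pair biological replicates and say no more on whether they were separate cultures. P-values within a line rest on the spread between replicate arrays, which may be technical. That spread is pooled for each gene over all 10 lines. The standard error of a gene is thus the same in every line and does not measure the spread of that line's own arrays. Lines are the replicates wherever genotypes are compared.

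EZH2 is the catalytic subunit of Polycomb repressive complex 2 (PRC2), which methylates a histone tail and holds genes silent. In mammals PRC2 is found mainly at promoters rich in CG dinucleotides, and noncoding genes can carry such promoters as protein-coding genes do. B cells of the germinal centre, the cells from which many of these lymphomas arise, hold much EZH2. For most LINC genes no function is established, so roles are given for neighbouring genes and only where they are known.

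Signals are MAS5 values, an array-wise summary of a probe set in arbitrary units. The array medians ran from 58.9 to 88.7, so a signal near 72.1 is about the median. A log2 fold change is GSK126 minus DMSO of log2(signal + 17.72), which understates changes of dim genes, and ± is its standard error. The B cell markers MS4A1, CD79A, CD79B, CD22 and PAX5 were all measured. CD79A, CD79B, CD22 and PAX5 lay above the median on all 40 arrays and MS4A1 on 36. Their summed signal was 22579 to 52817 on GSK126 arrays and 21033 to 50813 on DMSO arrays. Summed T and NK cell markers ran from 152 to 7674 on GSK126 arrays and from 169 to 9453 on DMSO arrays. The highest of these came from CD3D, with up to 5340 in KARPAS-422, and CD3G, with up to 3976 there. Epithelial EPCAM reached 12533 in Pfeiffer. Of the 6 T and NK cell and the 5 stromal and epithelial markers 4 each were tested and 0 were called in any line. Of the 5 myeloid markers 3 were tested: ITGAM (-1.51) and CSF1R (-1.13) fell in KARPAS-422 and LYZ (1.54) rose in SU-DHL-10, with summed signals of 82.3 to 327 on GSK126 arrays and 113 to 373 on DMSO arrays. Of the erythroid and endothelial markers 3 were tested, and PECAM1 (0.57) rose in WSU-DLCL2. Of the B cell markers 3 rose in Pfeiffer, 2 each in WSU-DLCL2 and OCI-LY-19 and 1 each in SU-DHL-10, SU-DHL-6 and DB, and in KARPAS-422 2 rose and 1 fell. These changes stand beside the LINC ones, and their part in the results was not tested. In RNA from a whole culture, fewer cells of a kind and less RNA per cell cannot be told apart.

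Because PRC2 sits at CG-rich promoters, the promoters of the 6 members called in at least 4 lines and with an entry in RefSeq are shown, with each CG in capitals. Each runs 5′ to 3′ from 250 bases before to 50 bases after the annotated start, on the plus strand of GRCh38.p14. They lie at chr21:45287802-45288101 (LINC00205), chr1:120911988-120912287 (LINC00623), chr7:152463874-152464173 (LINC01003), chrX:318895-319194 (LINC00685), chr15:32536509-32536808 (LINC02256) and chr3:108125571-108125870 (LINC01215).
LINC00205: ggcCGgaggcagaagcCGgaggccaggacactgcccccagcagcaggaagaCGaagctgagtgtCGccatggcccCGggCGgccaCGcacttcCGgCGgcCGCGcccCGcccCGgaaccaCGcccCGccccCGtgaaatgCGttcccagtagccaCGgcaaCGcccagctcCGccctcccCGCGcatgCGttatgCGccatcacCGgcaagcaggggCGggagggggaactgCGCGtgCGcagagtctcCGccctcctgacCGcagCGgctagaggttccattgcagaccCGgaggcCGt
LINC00623: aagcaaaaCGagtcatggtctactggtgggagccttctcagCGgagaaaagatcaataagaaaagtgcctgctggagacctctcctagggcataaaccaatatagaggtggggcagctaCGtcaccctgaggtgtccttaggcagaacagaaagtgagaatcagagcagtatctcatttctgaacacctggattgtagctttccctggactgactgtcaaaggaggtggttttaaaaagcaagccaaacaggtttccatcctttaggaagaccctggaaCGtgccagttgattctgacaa
LINC01003: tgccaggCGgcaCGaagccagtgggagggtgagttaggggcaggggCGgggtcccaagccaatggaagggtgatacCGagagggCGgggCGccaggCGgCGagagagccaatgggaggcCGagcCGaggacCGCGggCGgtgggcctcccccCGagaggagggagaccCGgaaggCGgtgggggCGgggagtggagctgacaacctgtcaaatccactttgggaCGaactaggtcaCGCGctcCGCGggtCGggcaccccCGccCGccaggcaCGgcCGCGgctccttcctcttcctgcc
LINC00685: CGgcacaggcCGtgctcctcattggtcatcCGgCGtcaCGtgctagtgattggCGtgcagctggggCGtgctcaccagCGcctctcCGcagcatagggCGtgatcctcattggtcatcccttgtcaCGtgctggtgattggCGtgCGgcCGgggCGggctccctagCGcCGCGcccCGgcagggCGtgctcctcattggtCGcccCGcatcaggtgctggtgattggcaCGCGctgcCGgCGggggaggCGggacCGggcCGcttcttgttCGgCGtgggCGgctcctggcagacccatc
LINC02256: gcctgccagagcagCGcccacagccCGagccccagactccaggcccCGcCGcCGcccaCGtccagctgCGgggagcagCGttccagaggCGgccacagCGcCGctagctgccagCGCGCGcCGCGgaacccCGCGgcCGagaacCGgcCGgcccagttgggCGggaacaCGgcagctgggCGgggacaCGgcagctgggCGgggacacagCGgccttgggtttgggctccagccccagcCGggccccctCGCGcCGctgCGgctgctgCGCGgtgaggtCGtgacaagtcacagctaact
LINC01215: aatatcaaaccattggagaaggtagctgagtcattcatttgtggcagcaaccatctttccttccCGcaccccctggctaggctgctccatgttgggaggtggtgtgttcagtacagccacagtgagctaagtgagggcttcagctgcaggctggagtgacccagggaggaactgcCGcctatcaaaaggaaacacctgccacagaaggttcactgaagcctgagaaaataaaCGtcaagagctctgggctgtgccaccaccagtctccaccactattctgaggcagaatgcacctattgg
LINC02256 held 35 CG, LINC00205 34, LINC00685 32, LINC01003 28, LINC00623 4 and LINC01215 3. Of all 35116 promoters of this length in the table, 14.1% hold at least as many CG as LINC02256, 15.6% as many as LINC00205, 18.9% as many as LINC00685, 26.2% as many as LINC01003, 75.5% as many as LINC00623 and 81.8% as many as LINC01215. Promoters were found for 90 of the 121 members, with a median of 11.5 CG, against 14 over all promoters. The CG search covers both strands at once, since CG reads the same on each, and 96.0% of all promoters hold at least 1. Among members called in at least 1 line the median was 13.5 CG (n = 34), and among members never called 9.5 (n = 56). These counts are descriptions and say nothing of binding.

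The first question was how many LINC genes changed with GSK126 in each line. A gene was called if its adjusted p was under 0.05, over all 15211 genes tested. The largest number was in KARPAS-422, where 23 members rose and 5 fell, 23.1% of the 121. Without the first DMSO array of KARPAS-422 15 members were called there, in a fit with fewer arrays. The count of WSU-DLCL2, too, was lower without any 1 of its arrays, as given below. With all arrays, 28.9% of all genes were called in KARPAS-422, 15.5% risen and 13.4% fallen. In WSU-DLCL2 14 rose and 6 fell, 16.5% against 26.6% of all genes (13.9% risen, 12.7% fallen). In Pfeiffer 10 rose and 2 fell, 9.92% against 24.6% of all genes (14.6% risen, 9.93% fallen). In SU-DHL-10 5 rose and 5 fell, 8.26% against 18.2% (11.0% risen, 7.16% fallen). SU-DHL-6 had 11 risen members and 0 fallen ones, 9.09% against 11.0% (7.42% risen, 3.56% fallen). Without any 1 of its arrays 6 or 7 members were called in SU-DHL-6, and 0 when that line was fitted alone. In HT, a wild type line, 4 rose and 3 fell, 5.79% against 9.32% (6.31% risen, 3.0% fallen). HT had 4 called members without its second GSK126 or first DMSO array and 3 when fitted alone, and Pfeiffer 7 without its first GSK126 array. No share of all genes is given for fits without an array or of 1 line alone. Those lower counts thus say nothing particular to LINC genes. In the fit to all arrays, the member share was below that of all genes in these 6 lines. It was also below that of all genes meeting the same level rule, of which 35.8% were called in KARPAS-422, 33.2% in WSU-DLCL2, 30.4% in Pfeiffer, 22.2% in SU-DHL-10, 11.8% in HT and 13.6% in SU-DHL-6. The share that rose was above that of all genes in KARPAS-422 and SU-DHL-6, and the share that fell was below it in each of the 6. In SU-DHL-6 the risen share was 2.48% against 3.75% of all genes at equal medians and 4.96% against 5.72% after quantile normalization, so its order turned. KARPAS-422 kept its order, with 14.0% against 10.2% at equal medians and 14.0% against 13.3% after quantile normalization. In HT the fallen share was 2.48% against 2.25% at equal medians. With arrays brought to equal medians, the members in SU-DHL-6 split into 3 risen and 4 fallen, and those of KARPAS-422 into 17 and 12. Pfeiffer had 5 and 9, WSU-DLCL2 6 and 11, SU-DHL-10 3 and 14 and HT 2 and 3 under that scaling. Quantile normalization gave 6 risen and 4 fallen in Pfeiffer, 17 and 9 in KARPAS-422, 2 and 3 in HT and 6 and 3 in SU-DHL-6. Of the 71 rises, 38 were still called at equal medians and 47 after quantile normalization, and all 21 falls were called under both.

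The other 4 lines held 4 calls. DB had 2 risen members and 0 fallen ones, 1.65% against 3.12% of all genes (2.5% risen, 0.618% fallen) and 3.82% of genes meeting the level rule. OCI-LY-19 had 1 risen member, 0.826% against 2.41% of all genes (1.97% risen, 0.44% fallen) and 3.0% of genes meeting the level rule. Toledo had 1 risen member, 0.826% against 0.164% of all genes (0.138% risen, 0.0263% fallen) and 0.21% of genes meeting the level rule. SU-DHL-4 had 0 called members by limma, with 12 at an unadjusted p under 0.05 (9.92% against 13.1% of all genes), and 2 when that line was fitted alone. No share of all genes is given for that single-line fit. Of all genes 2.6% were called in SU-DHL-4 (2.14% risen, 0.454% fallen), and 3.23% of those meeting the level rule. The 7 mutant lines held 83 of the 92 calls, 90.2%, and the 3 wild type lines 9. Over all genes the mutant lines held 90.6% of the calls.

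**Figure D1:**
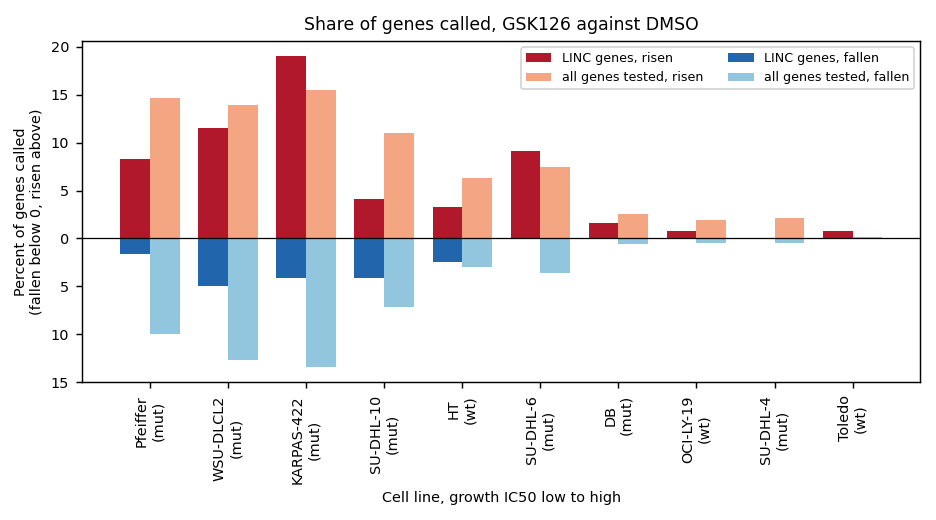
Percent of the 121 LINC genes (darker bars, left) and of the 15211 genes tested (paler bars, right) called in each line, risen above 0 and fallen below 0, with lines in order of growth IC50. In KARPAS-422 23 of 121 LINC genes rose and 5 fell, against 15.5% and 13.4% of all genes.

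The 92 calls, 71 rises and 21 falls among 1210 gene and line pairs, fell on 46 members. Of these 30 only rose, 7 only fell and 9 rose in one line and fell in another. The other 75 members were never called. Of the called members 23 changed in 1 line, 10 changed in 2, 6 in 3, 4 in 4 and 3 in 5. The change was at least 2-fold for 24 calls, 17 rises and 7 falls, and called log2 fold changes ran from -1.90 to 1.69. For the counts by number of lines, of both directions and of 2-fold changes no share over all genes is given. Those counts are descriptions. The 2 GSK126 and 2 DMSO signals did not overlap for 91 calls, the exception being LINC00324 in Pfeiffer. That is 98.9% of the member calls, against 99.6% of the calls over all genes. Called or not, the groups did not overlap in 44.7% of member and line pairs and in 50.7% of pairs over all genes. Where separate groups are mentioned for a gene below, they are a description and add little to its call. The members are dimmer than other expressed genes, with a median log2 level of 7.46, against 9.69 over all genes meeting the level rule. Replicate arrays differed by a median of 0.22 on the log2 scale for members and 0.11 for genes meeting the level rule. The median standard error of a fold change was 0.25 for members, 0.18 over all genes and 0.13 for those expressed genes. Of the 92 calls 78 fell in the brighter 61 members, whose replicates differed by 0.16, and 14 in the dimmer 60, whose replicates differed by 0.29.

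**Figure D2:**
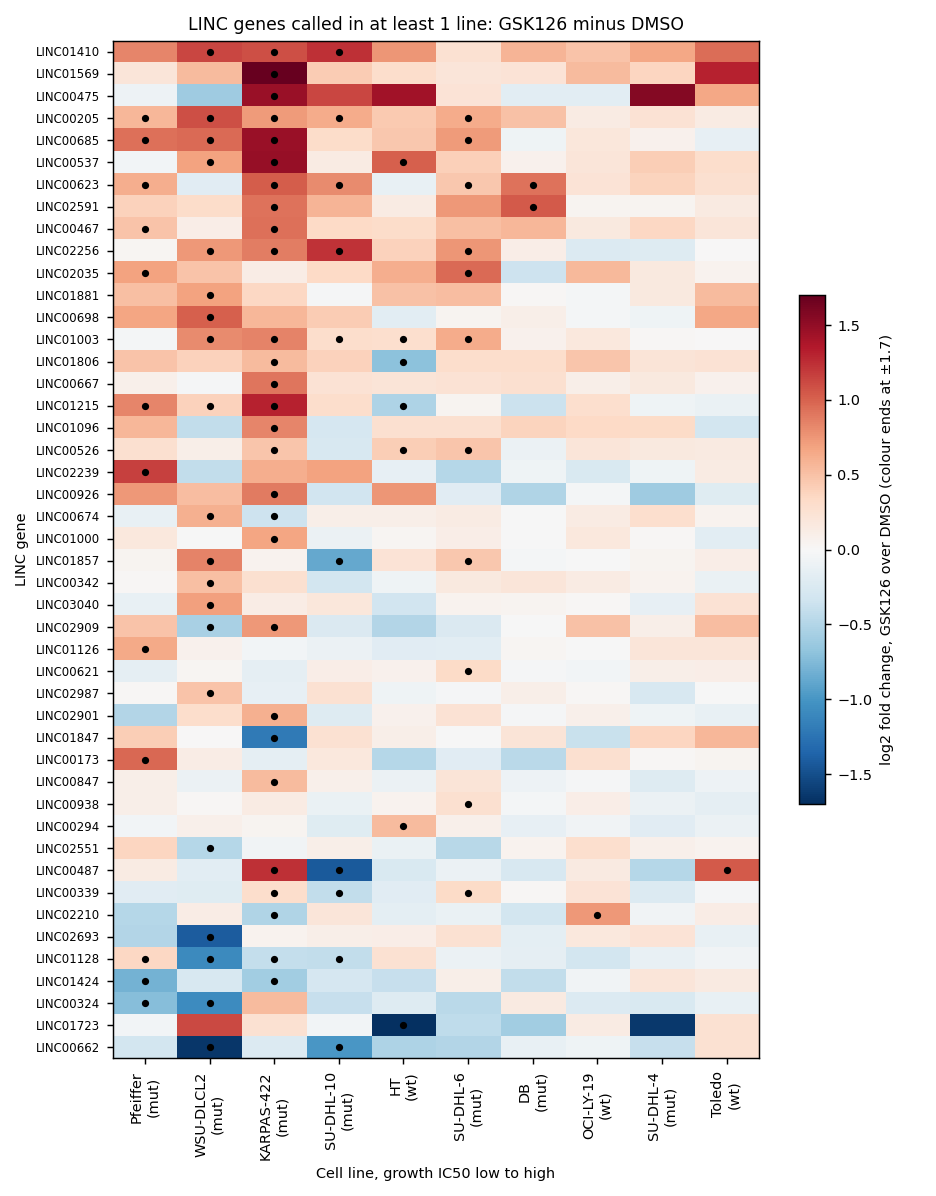
Log2 fold change, GSK126 over DMSO, of the 46 LINC genes called in at least 1 line (rows, by mean change) in each of the 10 lines (columns, growth IC50 low to high, mut for mutant and wt for wild type EZH2). Dots mark calls. KARPAS-422 has 28 dots and SU-DHL-4 has 0.

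LINC00205, on chromosome 21, rose in 5 lines, all mutant, and its GSK126 mean was the higher one in all 10. It had 335 and 311 on the GSK126 arrays against 136 and 147 on the DMSO arrays in WSU-DLCL2. The signals were 266 and 234 against 139 and 150.3 in KARPAS-422, and 514 and 344 against 278 and 282 in Pfeiffer. Further down the order of sensitivity they were 172 and 152 against 105 and 91.7 in SU-DHL-10 and 185 and 227 against 141 and 112 in SU-DHL-6. Each of these 5 lines had both GSK126 arrays above both DMSO arrays. The log2 fold change was 1.10 ± 0.20 (adjusted p = 8.70e-05) in WSU-DLCL2, 0.72 ± 0.20 (adjusted p = 0.00578) in KARPAS-422 and 0.63 ± 0.20 (adjusted p = 0.035) in SU-DHL-6. It was 0.63 ± 0.20 (adjusted p = 0.0235) in SU-DHL-10 and 0.56 ± 0.20 (adjusted p = 0.0372) in Pfeiffer. In the other lines it ran from 0.14 in Toledo to 0.50 in DB. The call in Pfeiffer was lost without the first GSK126 array (0.28), the first DMSO array (0.55) or the second DMSO array (0.57). In KARPAS-422 the threshold was missed without the first GSK126 array (0.64). LINC00205 was no longer called in SU-DHL-10 without any 1 of its 4 arrays (0.55 to 0.71). Without the second GSK126 array (0.50), the first DMSO array (0.78) or the second DMSO array (0.49), the SU-DHL-6 change of LINC00205 missed the threshold. LINC00205 kept its WSU-DLCL2 call whichever array was left out. LINC00205 was not called in SU-DHL-6 (0.46), Pfeiffer (0.41) and SU-DHL-10 (0.41) with arrays at equal medians nor in Pfeiffer (0.50), SU-DHL-6 (0.48), SU-DHL-10 (0.48) and KARPAS-422 (0.47) after quantile normalization.

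LINC00623, on chromosome 1, also rose in 5 lines. It had 2202 and 2042 on the GSK126 arrays against 1181 and 1237 on the DMSO arrays in SU-DHL-10. Signals were 980.0 and 915 against 598 and 622 in Pfeiffer and 415 and 395 against 208 and 201 in DB. They were lower in KARPAS-422, with 237 and 186 on the GSK126 arrays against 118 and 73.5 on the DMSO arrays, and the groups did not overlap. The log2 fold change was 1.03 ± 0.12 (adjusted p = 1.75e-07) in KARPAS-422, 0.93 ± 0.12 (adjusted p = 1.07e-05) in DB and 0.80 ± 0.12 (adjusted p = 2.25e-05) in SU-DHL-10. It was 0.62 ± 0.12 (adjusted p = 3.75e-04) in Pfeiffer and 0.45 ± 0.12 (adjusted p = 0.0157) in SU-DHL-6. The call in SU-DHL-6 was lost without the first GSK126 array (0.48), the second GSK126 array (0.43) or the second DMSO array (0.35). LINC00623 kept its calls in Pfeiffer, KARPAS-422, SU-DHL-10 and DB whichever array was left out. LINC00623 was not called in SU-DHL-6 (0.27) with arrays at equal medians. In WSU-DLCL2 the change was -0.19. This probe set is of the x type, whose probes can also bind other transcripts.

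LINC01003, on chromosome 7, rose in 5 lines including the wild type line HT. It had 1552 and 1526 on the GSK126 arrays against 951 and 809 on the DMSO arrays in WSU-DLCL2. Signals were 1474 and 1385 against 804 and 769 in KARPAS-422 and 802 and 925 against 517 and 583 in SU-DHL-6. The arrays of each treatment lay close together in these lines, and the log2 fold changes were 0.85 ± 0.08 (adjusted p = 3.12e-09) in KARPAS-422 and 0.80 ± 0.08 (adjusted p = 1.89e-08) in WSU-DLCL2. The change was 0.63 ± 0.08 (adjusted p = 3.50e-06) in SU-DHL-6. Smaller rises were called in SU-DHL-10, at 0.29 ± 0.08 (adjusted p = 0.0108), and in HT, at 0.28 ± 0.08 (adjusted p = 0.0273). In SU-DHL-10 the threshold was missed without the second GSK126 array (0.24) or the first DMSO array (0.25). LINC01003 was no longer called in HT without any 1 of its 4 arrays (0.25 to 0.31). LINC01003 kept its calls in WSU-DLCL2, KARPAS-422 and SU-DHL-6 whichever array was left out. LINC01003 was not called in HT (0.21) and SU-DHL-10 (0.04) with arrays at equal medians nor in HT (0.24) after quantile normalization. In Pfeiffer, the most sensitive line, the change was -0.03. Its probe set is of the s type, shared by several transcripts.

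LINC00685, on chromosome X, rose in 4 mutant lines. It had 987 and 842 on the GSK126 arrays against 296 and 344 on the DMSO arrays in KARPAS-422. Signals were 702 and 647 against 327 and 350.1 in WSU-DLCL2, 409 and 348 against 160.0 and 224 in Pfeiffer and 481 and 369 against 267 and 233 in SU-DHL-6. Each line had both GSK126 arrays above both DMSO arrays. The log2 fold change was 1.46 ± 0.16 (adjusted p = 2.72e-08) in KARPAS-422. It was 0.96 ± 0.16 (adjusted p = 3.09e-05) in WSU-DLCL2, 0.93 ± 0.16 (adjusted p = 5.23e-05) in Pfeiffer and 0.72 ± 0.16 (adjusted p = 0.00271) in SU-DHL-6. Without the first GSK126 array (0.53), the SU-DHL-6 change of LINC00685 missed the threshold. LINC00685 kept its calls in Pfeiffer, WSU-DLCL2 and KARPAS-422 whichever array was left out. LINC00685 kept these calls under both other scalings. In HT the change was 0.46 ± 0.16 (adjusted p = 0.0682), which missed the threshold, and in Toledo -0.14.

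LINC02256, on chromosome 15, rose in 4 mutant lines. It had 456 and 474 on the GSK126 arrays against 188 and 190.4 on the DMSO arrays in SU-DHL-10. Signals were 459 and 393 against 261 and 229 in SU-DHL-6, 199 and 236 against 119 and 127 in WSU-DLCL2 and 183 and 201 against 107 and 86.4 in KARPAS-422. The log2 fold changes were 1.22 ± 0.21 (adjusted p = 8.14e-05) in SU-DHL-10 and 0.88 ± 0.21 (adjusted p = 0.00174) in KARPAS-422. They were 0.75 ± 0.21 (adjusted p = 0.0174) in SU-DHL-6 and 0.74 ± 0.21 (adjusted p = 0.00842) in WSU-DLCL2. The call in WSU-DLCL2 was lost without the second GSK126 array (0.62) or the first DMSO array (0.69). In SU-DHL-6 the threshold was missed without the first GSK126 array (0.65), the first DMSO array (0.84) or the second DMSO array (0.67). LINC02256 kept its calls in KARPAS-422 and SU-DHL-10 whichever array was left out. LINC02256 was not called in SU-DHL-6 (0.57) and WSU-DLCL2 (0.51) with arrays at equal medians nor in SU-DHL-6 (0.64) and WSU-DLCL2 (0.53) after quantile normalization. Pfeiffer gave 0.04. Its probe set is also of the x type.

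LINC01128 and LINC01215 changed in opposite directions between lines. LINC01128, on chromosome 1, fell in WSU-DLCL2, with 659 and 601 on the GSK126 arrays against 1424 and 1288 on the DMSO arrays. Signals were 797 and 882 against 1031 and 1215 in KARPAS-422 and 902 and 885 against 1320.0 and 1082 in SU-DHL-10. In Pfeiffer the order was reversed, with 972 and 815 on the GSK126 arrays against 661 and 722 on the DMSO arrays. The log2 fold changes were -1.08 ± 0.11 (adjusted p = 3.30e-08) in WSU-DLCL2, -0.41 ± 0.11 (adjusted p = 0.00697) in KARPAS-422 and -0.41 ± 0.11 (adjusted p = 0.0107) in SU-DHL-10, against 0.36 ± 0.11 (adjusted p = 0.0215) in Pfeiffer. LINC01128 was no longer called in Pfeiffer without the first GSK126 array (0.23) or the first DMSO array (0.30). Without the first GSK126 array (-0.34) or the second DMSO array (-0.29), the KARPAS-422 change of LINC01128 missed the threshold. The call in SU-DHL-10 was lost without the second GSK126 array (-0.40) or the first DMSO array (-0.27). LINC01128 kept its WSU-DLCL2 call whichever array was left out. LINC01128 was not called in Pfeiffer (0.21) with arrays at equal medians. Its second probe set gave -0.19 in WSU-DLCL2 and 0.25 in KARPAS-422, and the probe set used is of the s type.

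LINC01215, on chromosome 3, rose in KARPAS-422, where it had 168 and 172 on the GSK126 arrays against 54.2 and 61.8 on the DMSO arrays. Signals were 747 and 757 against 463 and 372 in Pfeiffer and 2018 and 2204 against 1584 and 1635 in WSU-DLCL2. In HT it fell, with 624 and 619.6 on the GSK126 arrays against 992 and 822 on the DMSO arrays. All 4 pairs of groups were separate. The log2 fold changes were 1.31 ± 0.12 (adjusted p = 7.58e-10) in KARPAS-422 and 0.83 ± 0.12 (adjusted p = 3.66e-06) in Pfeiffer. In WSU-DLCL2 the change was 0.39 ± 0.12 (adjusted p = 0.0138) and in HT -0.53 ± 0.12 (adjusted p = 0.00329). In WSU-DLCL2 the threshold was missed without the second GSK126 array (0.32) or the first DMSO array (0.36). LINC01215 was no longer called in HT without the first DMSO array (-0.39). LINC01215 kept its calls in Pfeiffer and KARPAS-422 whichever array was left out. LINC01215 was not called in WSU-DLCL2 (0.14) with arrays at equal medians. Its DMSO signal spanned 58.0 in KARPAS-422 to 3207 in DB.

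LINC01410, on chromosome 9, had a higher mean on GSK126 in all 10 lines and rose in 3. It had 422 and 399.9 on the GSK126 arrays against 131 and 205 on the DMSO arrays in SU-DHL-10. Signals were 394 and 412 against 169 and 179.6 in WSU-DLCL2 and 364 and 325 against 128 and 179 in KARPAS-422. The log2 fold changes were 1.24 ± 0.31 (adjusted p = 0.0048) in SU-DHL-10, 1.13 ± 0.31 (adjusted p = 0.00649) in WSU-DLCL2 and 1.09 ± 0.31 (adjusted p = 0.00775) in KARPAS-422. All 3 missed the threshold with a pseudocount of 1, at adjusted p-values of 0.0695 to 0.0799. Without the first GSK126 array (1.02) or the first DMSO array (0.88), the KARPAS-422 change of LINC01410 missed the threshold. The call in SU-DHL-10 was lost without the first DMSO array (0.94). LINC01410 kept its WSU-DLCL2 call whichever array was left out. LINC01410 kept these calls under both other scalings. In the other 7 lines the change ran from 0.27 in SU-DHL-6 to 0.96 in Toledo, where the signals were 69.3 and 56.3 on the GSK126 arrays against 5.43 and 56.3 on the DMSO arrays.

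LINC00537, also on chromosome 9, rose in KARPAS-422, WSU-DLCL2 and HT. It had 559 and 611 on the GSK126 arrays against 223 and 175 on the DMSO arrays in KARPAS-422. Signals were 1260.3 and 1318 against 794 and 798 in WSU-DLCL2 and 398 and 486 against 205 and 213 in HT. The log2 fold changes were 1.48 ± 0.14 (adjusted p = 4.05e-09) in KARPAS-422, 0.68 ± 0.14 (adjusted p = 6.10e-04) in WSU-DLCL2 and 1.01 ± 0.14 (adjusted p = 1.51e-05) in HT. LINC00537 kept its calls in WSU-DLCL2, KARPAS-422 and HT whichever array was left out. LINC00537 was not called in WSU-DLCL2 (0.43) with arrays at equal medians. The second probe set of the gene gave 0.21 in KARPAS-422, -0.03 in WSU-DLCL2 and -0.45 in HT, none of them called. LINC00526, on chromosome 18, rose by smaller amounts. Its log2 fold change was 0.47 ± 0.13 (adjusted p = 0.0184) in SU-DHL-6, 0.47 ± 0.13 (adjusted p = 0.00708) in KARPAS-422 and 0.42 ± 0.13 (adjusted p = 0.0418) in HT. Signals were 511 and 553 against 379 and 379 in SU-DHL-6. In KARPAS-422 the threshold was missed without the second GSK126 array (0.33) or the first DMSO array (0.38). LINC00526 was no longer called in HT without the first GSK126 array (0.37), the second GSK126 array (0.46) or the second DMSO array (0.23). Without the second GSK126 array (0.41), the first DMSO array (0.47) or the second DMSO array (0.47), the SU-DHL-6 change of LINC00526 missed the threshold. LINC00526 was not called in HT (0.35), KARPAS-422 (0.31) and SU-DHL-6 (0.29) with arrays at equal medians nor in SU-DHL-6 (0.39), HT (0.36) and KARPAS-422 (0.24) after quantile normalization.

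**Figure D3:**
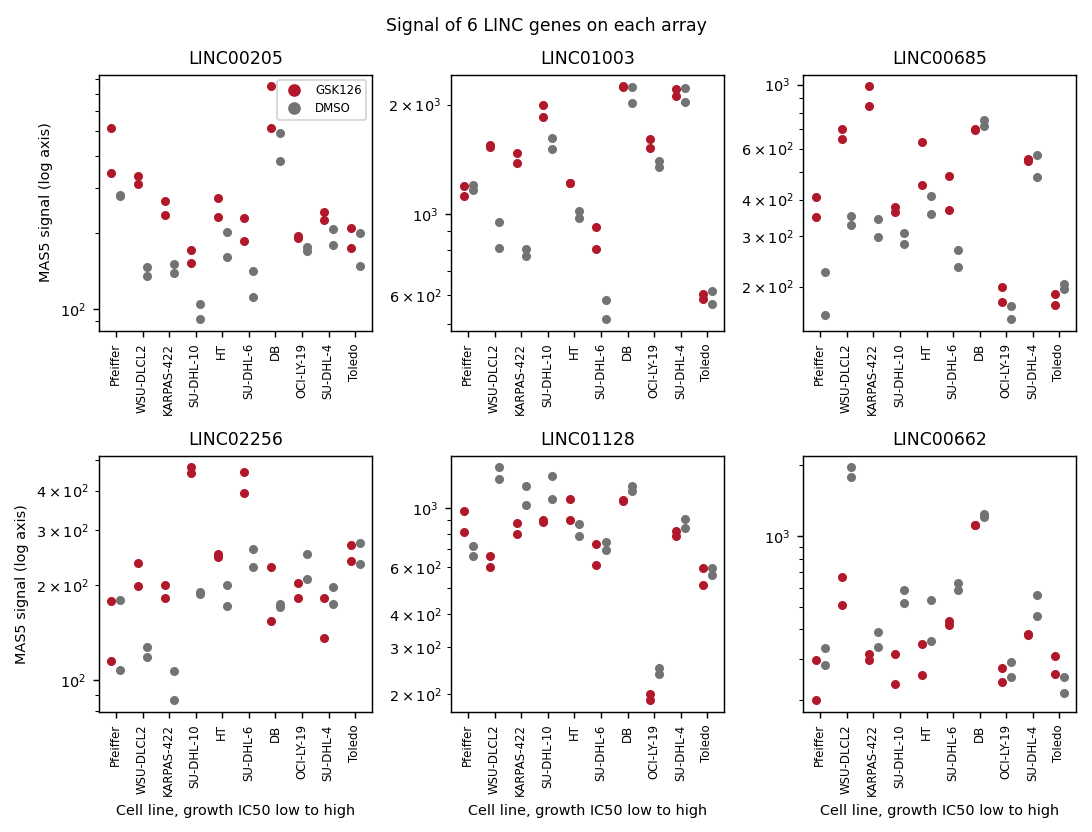
MAS5 signal on each array (log axis) for 6 LINC genes in 10 lines ordered by growth IC50, GSK126 in red left of DMSO in grey, 2 arrays each. LINC00205 and LINC00685 lie higher on GSK126 in WSU-DLCL2 and KARPAS-422, LINC01128 and LINC00662 lie lower on GSK126 in WSU-DLCL2.

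LINC00662, on chromosome 19, had the largest called fall in WSU-DLCL2. It had 507 and 669.9 on the GSK126 arrays against 1783 and 1960.1 on the DMSO arrays in WSU-DLCL2 and 233 and 314 on the GSK126 arrays against 589 and 519.9 on the DMSO arrays in SU-DHL-10. The log2 fold changes were -1.65 ± 0.18 (adjusted p = 8.41e-08) in WSU-DLCL2 and -0.99 ± 0.18 (adjusted p = 2.60e-04) in SU-DHL-10. LINC00662 kept its calls in WSU-DLCL2 and SU-DHL-10 whichever array was left out. LINC00662 kept these calls under both other scalings. Its second probe set gave -0.72 in WSU-DLCL2, called as well, and -0.58 in SU-DHL-10 (adjusted p = 0.0712). The probe set used was below 0 in every line but Toledo. LINC01424, on chromosome 21, fell in Pfeiffer, with 143 and 153 on the GSK126 arrays against 267 and 276 on the DMSO arrays, and in KARPAS-422, with 217 and 219.8 on the GSK126 arrays against 336 and 336 on the DMSO arrays. The log2 fold change was -0.80 ± 0.18 (adjusted p = 0.00156) in Pfeiffer and -0.58 ± 0.18 (adjusted p = 0.0164) in KARPAS-422. The call in KARPAS-422 was lost without any 1 of its 4 arrays (-0.59 to -0.58). LINC01424 kept its Pfeiffer call whichever array was left out. LINC01424 kept these calls under both other scalings.

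LINC00487, on chromosome 2, rose in KARPAS-422, with 1295 and 1153 on the GSK126 arrays against 511 and 504 on the DMSO arrays, and fell in SU-DHL-10, with 313 and 278 on the GSK126 arrays against 812 and 842 on the DMSO arrays. The log2 fold change was 1.24 ± 0.21 (adjusted p = 4.54e-05) in KARPAS-422 and -1.43 ± 0.21 (adjusted p = 1.33e-05) in SU-DHL-10. Its rise in Toledo was the only LINC call of that line. It had 36.6 and 20.8 on the GSK126 arrays against 4.20 and 4.68 on the DMSO arrays there, all under the array medians, for a change of 1.04 ± 0.21 (adjusted p = 0.0347). In Toledo the threshold was missed without the first GSK126 array (0.80), the first DMSO array (1.03) or the second DMSO array (1.06). LINC00487 kept its calls in KARPAS-422 and SU-DHL-10 whichever array was left out. LINC00487 was not called in Toledo (0.92) with arrays at equal medians nor in Toledo (0.89) after quantile normalization. LINC01857, also on chromosome 2, fell in SU-DHL-10 at -0.86 ± 0.13 (adjusted p = 9.40e-06), with 2694 and 2549 on the GSK126 arrays against 4805 and 4765 on the DMSO arrays, and rose in WSU-DLCL2, with 3133 and 2890.2 on the GSK126 arrays against 1594 and 1744 on the DMSO arrays. The rise in WSU-DLCL2 was 0.85 ± 0.13 (adjusted p = 7.04e-06) and a further one in SU-DHL-6 0.46 ± 0.13 (adjusted p = 0.0152). In SU-DHL-6 the gene was dim, with 55.1 and 45.5 on the DMSO arrays, under the array medians of 58.9 to 88.7. LINC01857 was no longer called in SU-DHL-6 without the second GSK126 array (0.36) or the second DMSO array (0.36). LINC01857 kept its calls in WSU-DLCL2 and SU-DHL-10 whichever array was left out. LINC01857 was not called in SU-DHL-6 (0.31) with arrays at equal medians nor in SU-DHL-6 (0.30) after quantile normalization.

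The largest rise in KARPAS-422 was that of LINC01569, and the largest fall in HT that of LINC01723. In each, 1 array lies far from its replicate. LINC01569 had 164 and 132 on the GSK126 arrays against 6.96 and 88.0 on the DMSO arrays in KARPAS-422, a change of 1.69 ± 0.42 (adjusted p = 0.0028). Without the first DMSO array (0.64), the KARPAS-422 change of LINC01569 missed the threshold. LINC01723 had 6.21 and 79.3 on the GSK126 arrays against 198 and 133 on the DMSO arrays in HT, a change of -1.90 ± 0.46 (adjusted p = 0.00667). The call in HT was lost without the first GSK126 array (-0.89) or the first DMSO array (-1.64). LINC01847 had 22.5 and 12.1 on the GSK126 arrays against 73.1 and 52.3 on the DMSO arrays in KARPAS-422, a change of -1.20 ± 0.36 (adjusted p = 0.0124). In KARPAS-422 the threshold was missed without the second GSK126 array (-0.99) or the first DMSO array (-1.02). The 3 genes kept these calls under both other scalings.

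The largest rises of Pfeiffer, SU-DHL-6, DB and OCI-LY-19 came from the following members. LINC02239 had 213 and 183 on the GSK126 arrays against 79.6 and 78.0 on the DMSO arrays in Pfeiffer, a change of 1.16 ± 0.31 (adjusted p = 0.00533), while its second probe set gave -0.16. LINC02239 was no longer called in Pfeiffer without the first GSK126 array (1.06). LINC02035 had 137 and 117 on the GSK126 arrays against 51.2 and 61.0 on the DMSO arrays in SU-DHL-6, a change of 0.97 ± 0.21 (adjusted p = 0.00225). It also rose in Pfeiffer, at 0.68 ± 0.21 (adjusted p = 0.0163). Without the first GSK126 array (0.63), the second GSK126 array (0.73) or the second DMSO array (0.52), the Pfeiffer change of LINC02035 missed the threshold. LINC02035 kept its SU-DHL-6 call whichever array was left out. LINC02035 was not called in Pfeiffer (0.54) with arrays at equal medians nor in Pfeiffer (0.57) after quantile normalization. LINC02591 had 84.7 and 61.5 on the GSK126 arrays against 23.9 and 28.3 on the DMSO arrays in DB, a change of 1.04 ± 0.25 (adjusted p = 0.0125), and its second probe set gave -0.07. It also rose in KARPAS-422, at 0.92 ± 0.25 (adjusted p = 0.00476). Its DMSO arrays gave 7.41 and 6.83 there, far under the array medians of 58.9 to 88.7. The second probe set gave 0.23 in KARPAS-422 (adjusted p = 0.718). The call in DB was lost without the first GSK126 array (0.85), the first DMSO array (0.97) or the second DMSO array (1.11). LINC02591 kept its KARPAS-422 call whichever array was left out. LINC02210 had 276 and 269 on the GSK126 arrays against 120.0 and 202 on the DMSO arrays in OCI-LY-19, a change of 0.74 ± 0.19 (adjusted p = 0.0315). It was the only LINC call of OCI-LY-19. LINC02210 fell in KARPAS-422, at -0.51 ± 0.19 (adjusted p = 0.0433). In KARPAS-422 the threshold was missed without any 1 of its 4 arrays (-0.56 to -0.46). LINC02210 was no longer called in OCI-LY-19 without the first GSK126 array (0.72), the second GSK126 array (0.75) or the first DMSO array (0.40). LINC02210 was not called in OCI-LY-19 (0.65) with arrays at equal medians nor in OCI-LY-19 (0.71) after quantile normalization.

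The members outside the naming rule that were called added 27 calls. LINC00467 rose in KARPAS-422 (0.93) and Pfeiffer (0.48), and LINC00674 rose in WSU-DLCL2 (0.61) and fell in KARPAS-422 (-0.36). LINC00339 rose in SU-DHL-6 (0.33) and KARPAS-422 (0.30) and fell in SU-DHL-10 (-0.42), and LINC02909 rose in KARPAS-422 (0.74) and fell in WSU-DLCL2 (-0.56). LINC02693 had 148 and 133 on the GSK126 arrays against 415 and 395 on the DMSO arrays in WSU-DLCL2, a change of -1.42 ± 0.23 (adjusted p = 2.03e-05). LINC00324 fell in WSU-DLCL2 at -1.08 ± 0.27 (adjusted p = 0.00312). The remaining calls included rises of LINC00698 (1.02) in WSU-DLCL2, LINC00173 (0.97) in Pfeiffer and LINC00667 (0.92) in KARPAS-422, and falls of LINC01806 (-0.70) in HT and LINC02551 (-0.48) in WSU-DLCL2. LINC00698 met the level rule with 21 arrays, 13 of GSK126 and 8 of DMSO, so GSK126 arrays helped to select it. The genes of these sentences were picked after their values were seen.

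The second question was whether LINC genes responded alike over the lines of a genotype, with the line as replicate. For the mean over the 7 mutant lines 0 members were called, with 24 at an unadjusted p under 0.05, 19.8%. Over all genes 0.00657% were called, 1 gene, with 25.1% at that unadjusted p. LINC01410 had a mean of 0.83 ± 0.16, positive in 7 of 7 mutant lines, and LINC00205 one of 0.63 ± 0.12, also in 7 of 7. Each had an adjusted p of 0.0568, the smallest of the members. With arrays at equal medians 5 members were called, and with testing limited to genes above the median on at least 20 arrays 7 were. The share of all genes called under these settings is not given here, so both counts say nothing particular to LINC genes. For the mean of the 3 wild type lines 0 were called against 0.0% of all genes, with 6 at an unadjusted p under 0.05, 4.96% against 3.62% of all genes. For the mutant minus wild type difference 0 were called against 0.0%, with 5 at an unadjusted p under 0.05, 4.13% against 3.78%. For the slope on log10 growth IC50 0 were called against 0.0%, with 11 at an unadjusted p under 0.05, 9.09% against 9.34%. The slope of LINC00685 was -0.52 ± 0.17 per unit of log10 IC50, and that of LINC01424 0.36 ± 0.09, each with an adjusted p of 0.43. LINC03011, named after its values were seen, had the smallest p for the difference by genotype, -0.55 ± 0.12 (adjusted p = 0.992), with means of -0.10 in mutant and 0.45 in wild type lines. An effect that reaches no adjusted threshold is not shown to be absent. The number of lines was 10.

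The levels before treatment varied widely by line. In DMSO 19 members spanned at least 8-fold over the 10 lines, 15.7% of members against 18.3% of genes meeting the level rule, and 35 spanned under 2-fold. The median range was 1.46 on the log2 scale for members and 1.55 for those genes. LINC00487 had the widest, at 239-fold: its DMSO arrays gave 5589.6 and 4982 in WSU-DLCL2, 3870.3 and 3706 in SU-DHL-4 and 979 and 1057 in DB. They gave 812 and 842 in SU-DHL-10 and 511 and 504 in KARPAS-422, and at most 94.8 in the remaining 5 lines. LINC01857 followed at 183-fold, with 9131 and 9654 in Pfeiffer, 4805 and 4765 in SU-DHL-10 and 1594 and 1744 in WSU-DLCL2. It gave 1492 and 1662 in SU-DHL-4 and 1461 and 1369 in DB, and at most 79.3 in the other 5 lines, where it lay near or under the array medians. In both genes the 2 arrays of each of the 5 high lines lay close together, and the gap between the 5 high lines and the 5 low ones exceeded that spread. LINC02901 stood at 5337 and 5658 in Pfeiffer and at most 386 elsewhere, a range of 74.8-fold. All folds here are on the log2(signal + 17.72) scale. LINC00487 gave at least 68.5 on DMSO arrays of the 7 mutant lines and at most 55.0 on those of the 3 wild type lines. That split is a description, since the gene was named for its range and met the level rule through mutant lines alone. The lower bound came from SU-DHL-6, whose arrays gave 68.5 and 76.2, inside the range of array medians of 58.9 to 88.7. HT set the upper bound of 55.0.

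**Figure D4:**
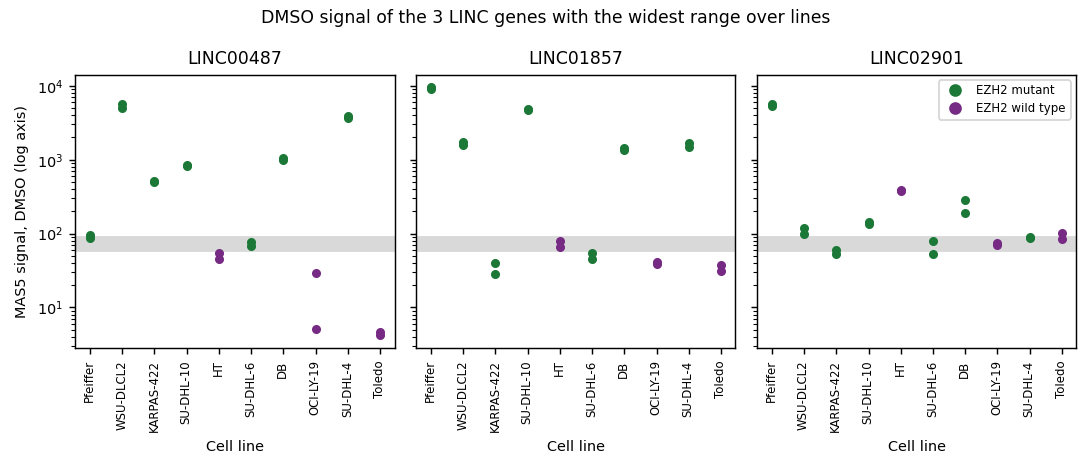
MAS5 signal in DMSO (log axis) of the 3 LINC genes with the widest range over lines, 2 arrays per line, mutant lines in green and wild type lines in purple, lines in order of growth IC50. The grey band is the range of array medians. LINC00487 runs from 4.20 in Toledo to 5589.6 in WSU-DLCL2 and LINC02901 stands alone in Pfeiffer.

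Between genotypes 0 members were called for the DMSO level, against 0.0526% of all genes, with 10 at an unadjusted p under 0.05, 8.26% against 7.78% of all genes. The rule over 40 arrays favours genes that are high in the 7 mutant lines. LINC03011 averaged 9.64 in mutant and 7.72 in wild type lines on the log2 scale, a difference of 1.92 ± 0.33 (adjusted p = 0.133). LINC00487 was above the array median on 25 arrays of mutant lines and on 0 of wild type lines, so it met the level rule through the mutant lines alone. Its averages of 9.47 in mutant and 5.19 in wild type lines are a description. Without HT, LINC03011 (2.17, adjusted p = 0.0297) and LINC01431 (1.55, adjusted p = 0.0399) were called. LINC01431 was above the median on 22 arrays of mutant and 4 of wild type lines, so the level rule used the arrays that differ. The narrowest ranges were those of LINC01049, from 86.1 in DB to 113 in OCI-LY-19, LINC01741, from 97.6 in SU-DHL-4 to 137 in Toledo, and LINC03008, from 62.3 in SU-DHL-10 to 91.3 in KARPAS-422. The members with the highest mean were LINC00621, from 1456 in Toledo to 3288 in SU-DHL-6, LINC00938, from 828 in Toledo to 3672 in SU-DHL-4, and LINC01000, from 899 in HT to 2995 in WSU-DLCL2. The probe sets of LINC00621 and LINC01000 are of the x type. LINC00475, LINC01431 and LINC02086 had the lowest means, with medians over lines of 55.3, 89.6 and 68.0.

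Among these, LINC00475 rose in KARPAS-422, with 95.1 and 133 on the GSK126 arrays against 14.2 and 51.6 on the DMSO arrays, a change of 1.47 ± 0.48 (adjusted p = 0.0205). Its probe set is of the x type as well, and its second probe set gave 0.50 there (adjusted p = 0.476). LINC00475 met the level rule with 13 arrays of GSK126 and 9 of DMSO, so GSK126 arrays helped to select it. Without the second GSK126 array (1.26) or the first DMSO array (0.91), the KARPAS-422 change of LINC00475 missed the threshold. LINC01000 rose there too, with 1576 and 1887 on the GSK126 arrays against 978 and 1180.3 on the DMSO arrays, a change of 0.67 ± 0.11 (adjusted p = 2.77e-05). LINC01000 kept its KARPAS-422 call whichever array was left out. LINC00621 rose in SU-DHL-6 at 0.32 ± 0.07 (adjusted p = 0.0012) and LINC00938 at 0.27 ± 0.07 (adjusted p = 0.0167). LINC00621 kept its SU-DHL-6 call whichever array was left out. LINC00621 was not called in SU-DHL-6 (0.14) with arrays at equal medians. The LINC00938 call in SU-DHL-6 was lost without the first GSK126 array (0.21) or the first DMSO array (0.24). LINC00938 was not called in SU-DHL-6 (0.08) with arrays at equal medians. LINC02901 rose in KARPAS-422, with 108 and 82.7 on the GSK126 arrays against 52.9 and 59.2 on the DMSO arrays, a change of 0.61 ± 0.22 (adjusted p = 0.0412). In KARPAS-422 the threshold was missed without the first GSK126 array (0.45), the first DMSO array (0.55) or the second DMSO array (0.67). LINC02901 was not called in KARPAS-422 (0.48) with arrays at equal medians nor in KARPAS-422 (0.46) after quantile normalization.

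The probe sets of a gene can disagree, so calls were set against a second one. Of the 121 members 54 have more than 1 probe set, and these held 40 of the calls. The second probe set moved the same way in 33 of the 40 and by at least 0.5 times as much in 22. For LINC00205 the second set rose in WSU-DLCL2 (1.27), KARPAS-422 (1.16) and Pfeiffer (0.73) and gave 0.68 in SU-DHL-10 (adjusted p = 0.0644) and 0.72 in SU-DHL-6 (adjusted p = 0.0776). That of LINC01410 rose in all 3 lines, at 0.85 in SU-DHL-10, 0.75 in WSU-DLCL2 and 0.56 in KARPAS-422. LINC00667 gave 0.92 and 0.90 with its 2 probe sets in KARPAS-422, and LINC02693 gave -1.42 and -1.07 in WSU-DLCL2. The sign differed for LINC00537, LINC02239, LINC02591, LINC02210, LINC02551 and LINC01128, in 1 or 2 lines each.

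**Figure D5:**
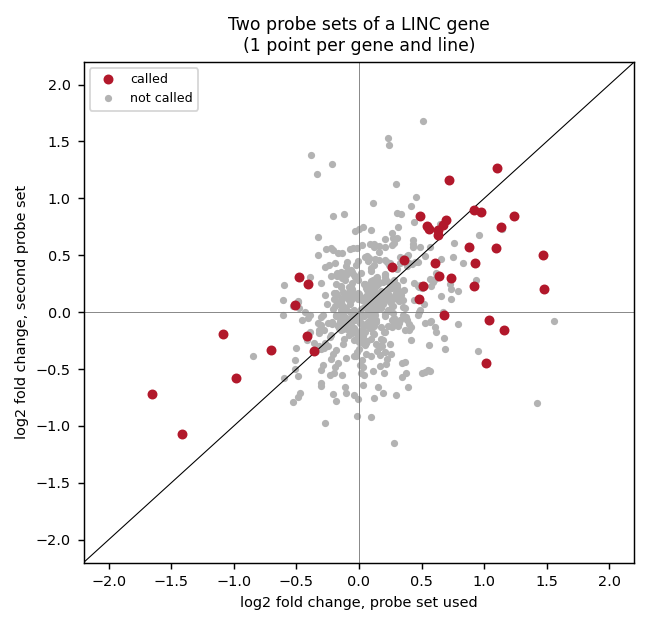
Log2 fold change, GSK126 over DMSO, of the probe set used (horizontal) and of the gene's second probe set (vertical) in 10 lines for the 54 LINC genes with more than 1. Red points are called with the probe set used; 33 of the 40 lie on the same side of 0 in both.

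A LINC gene can share its surroundings with the next gene, so members were set beside it. Next genes were found in the RefSeq table and 53 members had at least 1 that was tested, in 63 pairs. In 57 pair and line cases the member was called. The next gene was called in the same direction in 14 of these, 24.6%, and in the opposite one in 4, 7.02%. The share of all genes called in the matching direction, averaged over the lines of the 57 cases, was 11.9% for the same and 10.6% for the opposite direction. Over the 10 lines the median correlation between member and next gene was 0.27 for DMSO levels and -0.01 for responses, as a description of points that share arrays. LINC00685 and GTPBP6, which encodes a GTP-binding protein, were called together in 3 lines. GTPBP6 had 1067 and 1082 on the GSK126 arrays against 804 and 750.2 on the DMSO arrays in WSU-DLCL2. Signals were 1695 and 1745 against 1398 and 1239 in KARPAS-422 and 817 and 835 against 664 and 720.5 in Pfeiffer. Its log2 fold changes were 0.46 ± 0.09 (adjusted p = 2.03e-04) in WSU-DLCL2, 0.38 ± 0.09 (adjusted p = 0.00127) in KARPAS-422 and 0.25 ± 0.09 (adjusted p = 0.0367) in Pfeiffer. With arrays at equal medians they were 0.21 in WSU-DLCL2, 0.21 in KARPAS-422 and 0.10 in Pfeiffer, and none was called. Over lines the pair correlated at 0.86 for level and 0.79 for response (n = 10). On its other side PPP2R3B, a regulatory subunit of a protein phosphatase, rose in KARPAS-422 at 0.36 ± 0.12 (adjusted p = 0.0234) and fell in Pfeiffer at -0.55 ± 0.12 (adjusted p = 8.72e-04).

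LINC00205 and POFUT2, an enzyme that adds fucose to proteins, were not called together, since POFUT2 was called in 0 lines. LINC02035 and SLC49A4 rose together in SU-DHL-6, where SLC49A4 had 242 and 206 on the GSK126 arrays against 144 and 92.9 on the DMSO arrays, a change of 0.85 ± 0.17 (adjusted p = 0.0012). SLC49A4 also rose in SU-DHL-10, SU-DHL-4 and WSU-DLCL2, at 1.11, 0.73 and 0.60. LINC00526 and the next member LINC00667 rose together in KARPAS-422, and their levels correlated at 0.90 over lines. LINC01424 and UBE2G2, a ubiquitin-conjugating enzyme, fell together in Pfeiffer, UBE2G2 at -0.38 ± 0.07 (adjusted p = 1.74e-04). LINC00662 overlaps LINC02987, which lies on the opposite strand. LINC02987 rose in WSU-DLCL2 at 0.48 ± 0.13 (adjusted p = 0.00672) while LINC00662 fell. Whether the probes of these overlapping genes share signal was not checked. LINC01215 and IFT57, a cilium transport protein, rose together in Pfeiffer, IFT57 at 0.30 ± 0.08 (adjusted p = 0.00328). The next genes TFAP4 of LINC01569, SEMA5B of LINC02035, SUMO3 of LINC01424 and LINC00115 of LINC01128 were called in 0 lines.

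The nearest protein-coding gene was looked up for all members after the values were seen. It is GOLGA8N, of the golgin family of near-identical copies, for LINC02256. GOLGA8N rose in the same 4 lines and also in Pfeiffer, at 0.85 ± 0.15 (adjusted p = 1.99e-04) in SU-DHL-6 and 0.66 ± 0.15 (adjusted p = 0.00152) in SU-DHL-10. It is CMPK2, a mitochondrial nucleotide kinase induced by interferon, for LINC00487. CMPK2 had 14392 and 14939.6 on the GSK126 arrays against 3497 and 3592 on the DMSO arrays in KARPAS-422, a change of 2.04 ± 0.19 (adjusted p = 2.35e-09), beside the rise of LINC00487 there. In SU-DHL-10 CMPK2 rose, at 0.60 ± 0.19 (adjusted p = 0.0301), where LINC00487 fell. KMT2C, a histone methyltransferase and the next protein-coding gene to LINC01003, rose in KARPAS-422 at 0.45 ± 0.08 (adjusted p = 5.14e-05) and fell in SU-DHL-10 at -0.27 ± 0.08 (adjusted p = 0.0152) and in Pfeiffer at -0.25 ± 0.08 (adjusted p = 0.0203). Over all members 158 such pairs were tested, and in 121 cases with the member called, the protein-coding gene was called the same way in 28, 23.1%, and the opposite way in 8, 6.61%. Averaged over the lines of these cases, 11.8% of all genes were called the same way and 10.2% the opposite way. Neighbours and members share arrays, and the differences from these averages were not tested.

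The level rule has an edge, which the members nearest to it show. Just inside were LINC01847 (above the median on 20 arrays), LINC00698 (21) and LINC01260 (21). Just outside were LINC02076 (19), LINC00597 (19) and LINC02603 (18). LINC00158, tested but no member, was above the median on 6 arrays. EZH2, the PRC2 subunit that GSK126 targets, fell in Pfeiffer at -0.65 ± 0.06 (adjusted p = 6.63e-10), WSU-DLCL2 at -0.35 ± 0.06 (adjusted p = 1.63e-05), SU-DHL-10 at -0.30 ± 0.06 (adjusted p = 0.000269), SU-DHL-6 at -0.24 ± 0.06 (adjusted p = 0.00512) and HT at -0.19 ± 0.06 (adjusted p = 0.0259). With arrays at equal medians the HT value missed the threshold (-0.26, adjusted p = 0.0965) and EZH2 was also called in KARPAS-422 (-0.30). GSK126 acts on the enzyme, so its transcript is no check of the treatment.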

How the data were processed

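Total RNA of each culture was labelled with biotin, per the labels, and read on 1-colour arrays of 54675 probe sets with Affymetrix names. MAS5 is named per the submitters' processing notes, and its version and other settings are not given in the sources used here. The deposited values are log2 signals, as the values show: on the linear scale each array has a mean of 499.9 after 2% trimming at each end. Values were returned to the linear scale, 17.72 was added and log2 taken again, the pseudocount being the median over arrays of each array's 25th percentile. Symbols came from GEO's platform annotation: 41091 probe sets have 1 symbol, 1801 have several and 11721 none. Testing required a signal over the array median in 2 or more of the 40 samples, met by 15211 genes.

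limma 3.58.1 in R 4.3.3 fitted 20 group means over 40 arrays (20 residual and 6.98 prior degrees of freedom, variance trend), from which the GSK126 minus DMSO contrast of every line was taken. Across lines, 10 line values were fitted with genotype, or log10 growth IC50, as the term. Tests were two-sided with Benjamini-Hochberg adjustment over all genes tested. The procedure was tested on simulated data. Arrays with the same replicate number did not deviate together within a line (correlations of -0.04 to 0.07), so the numbers do not pair the arrays. The labels carry an R tag of unstated meaning, the same for all arrays of a line, tried as a block.

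Named genes were the 10 members called in the most lines, each line's largest called rise and fall, the 3 highest and 3 lowest in DMSO, the 3 widest and 3 narrowest ranges, and those nearest the level rule. The members and lists were chosen with earlier results of these data known. Alternatives were another pseudocount, 2 scalings, 2 filters, a stricter level rule, a second probe set, single-line fits, a replicate block, an R tag block, and leaving out arrays or lines. No detection calls were used, and the number of arrays limits precision. RefSeq promoters and gene positions (GRCh38.p14) were used for names, neighbours and sequences.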

Additional observations from a re-analysis of the deposited data

Results flagged for a closer look

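In 8 of 62 checks 1 of the 7 mutant lines lay far from the other 6, where chance marks about 1 check in 20 for genes chosen without regard to their values. These genes were named partly for a large change or range, so that share does not apply to them. LINC01569 had a log2 fold change of 1.69 in KARPAS-422, against 0.21 to 0.54 in the other mutant lines. Its DMSO level there was 5.67 on the log2 scale, against 7.24 to 7.71. Both values of LINC01569 use the first DMSO array of KARPAS-422, at 6.96, the second being at 88.0. LINC01847 had a log2 fold change of -1.20 in KARPAS-422, against -0.01 to 0.42. LINC01000 had one of 0.67 there, against -0.10 to 0.18. The DMSO level of LINC02239 was 5.74 in KARPAS-422, against 6.59 to 7.21. That of LINC02901 was 12.43 in Pfeiffer, against 6.20 to 7.97, with both DMSO arrays high. LINC01431 stood at 6.19 in SU-DHL-4, against 6.69 to 7.04. LINC03008 stood at 6.31 in SU-DHL-10, against 6.62 to 6.77.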

How the results depend on the processing

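The groups hold 2 arrays each, many members are dim, and probe sets and scalings differ. Of 65 named calls in single lines 31 were kept without any 1 array and 34 were lost without at least 1, with fewer arrays in those fits. Leaving out 1 array at a time gave these counts of called members: Pfeiffer 7 to 10, WSU-DLCL2 14 to 16, KARPAS-422 15 to 24, SU-DHL-10 9 to 11, HT 4 to 6, SU-DHL-6 6 to 7, DB 1 to 3, and 0 to 1 for each of Toledo, SU-DHL-4 and OCI-LY-19. The 15 of KARPAS-422 came without its first DMSO array. No share of all genes is given for these smaller fits, nor for the lines fitted alone below. Leaving out 1 line gave 0 to 2 for the DMSO level. Quantile normalization gave 0 called in OCI-LY-19, 1 in SU-DHL-4 and 0 in Toledo. Arrays at equal medians gave 17 in SU-DHL-10 (3 risen, 14 fallen), 7 in SU-DHL-6 (3 and 4), 0 in OCI-LY-19 and Toledo, and 5 for the mutant mean (2 and 3). That scaling moved the median change of all genes by -0.23 in SU-DHL-10, -0.22 in WSU-DLCL2, -0.17 in SU-DHL-6, -0.15 in KARPAS-422 and -0.14 in Pfeiffer and Toledo. The stricter filter of genes gave 1 in SU-DHL-4 and 7 for the mutant mean, the stricter level rule 0 in Toledo. For the mutant mean no share of all genes is given under these settings. The second probe set gave 1 in DB and 0 in OCI-LY-19 and Toledo. Lines fitted alone gave 3 in HT, 0 in SU-DHL-6, 0 in OCI-LY-19, 2 in SU-DHL-4 and 0 in Toledo. Those fits kept 54 of the 92 calls. The numbers did not pair the arrays, and the replicate block gave 4 in DB and 0 in Toledo and kept 79 of the 92 calls. With a second probe set LINC01128 reversed to 0.248 in KARPAS-422 and 0.00252 for the mutant mean, LINC00537 to -0.0282 in WSU-DLCL2 and -0.449 in HT, LINC02239 to -0.161 in Pfeiffer, LINC02591 to -0.0715 in DB and LINC02210 to 0.0642 in KARPAS-422. The causes were not tested. Of the named values set against an alternative, 724 kept direction and side of the threshold, 168 lost the call, 5 gained one and 7 reversed. The 75 named values were 65 calls in single lines and mean responses of mutant lines. Those means were uncalled, so for them the same side means no call. The 2 filters of genes leave every fold change as it was, and 72 values kept their side under each. The count of 724 is thus no measure of how well calls hold.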

Other observations

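Long noncoding RNAs named otherwise moved too. Of 36 such genes on a list of known noncoding RNAs 21 were tested. In KARPAS-422 10 rose and 2 fell, in WSU-DLCL2 8 and 0, in Pfeiffer 8 and 1, in SU-DHL-10 6 and 2, in SU-DHL-6 5 and 0, in HT 3 and 1, in DB 1 and 0, and 0 in the rest. Of all genes tested 15.5% rose and 13.4% fell in KARPAS-422, 13.9% and 12.7% in WSU-DLCL2 and 14.6% and 9.93% in Pfeiffer. These shares were 11.0% and 7.16% in SU-DHL-10, 7.42% and 3.56% in SU-DHL-6, 6.31% and 3.0% in HT and 2.5% and 0.618% in DB. With arrays at equal medians the split was 9 and 3 in KARPAS-422, 1 and 3 in WSU-DLCL2, 6 and 2 in Pfeiffer, 1 and 3 in SU-DHL-10, 2 and 2 in SU-DHL-6 and 1 and 1 in HT. All genes under that scaling gave 10.2% risen and 21.7% fallen in KARPAS-422, 5.46% and 24.3% in WSU-DLCL2 and 6.42% and 14.5% in Pfeiffer. They gave 5.13% and 21.8% in SU-DHL-10, 3.75% and 12.5% in SU-DHL-6 and 3.33% and 2.25% in HT. HCP5, a transcript of the MHC region, had 853 and 923 on the GSK126 arrays against 127 and 126 on the DMSO arrays in KARPAS-422, a change of 2.65 ± 0.40 (adjusted p = 8.45e-06). It rose in SU-DHL-10 at 1.93 ± 0.40 (adjusted p = 9.04e-04), with 80.9 and 69.1 against 8.69 and 4.65 in SU-DHL-10. MIAT had 871 and 919 on the GSK126 arrays against 329 and 324 on the DMSO arrays in Pfeiffer, a change of 1.41 ± 0.32 (adjusted p = 0.0016). MALAT1, an abundant nuclear RNA, rose in KARPAS-422 at 1.11 ± 0.09 (adjusted p = 2.46e-10), in Pfeiffer at 0.80 ± 0.09 (adjusted p = 1.73e-07) and in DB at 0.59 ± 0.09 (adjusted p = 1.34e-04). TAPT1-AS1 rose in KARPAS-422 at 1.31 ± 0.14 (adjusted p = 1.78e-08), in SU-DHL-6 at 1.16 ± 0.14 (adjusted p = 1.07e-06) and in WSU-DLCL2 at 0.97 ± 0.14 (adjusted p = 3.76e-06). CRNDE fell in SU-DHL-10 at -0.52 and in Pfeiffer at -0.40, DLEU1 in KARPAS-422 at -0.48 and in SU-DHL-10 at -0.27, DANCR in KARPAS-422 at -0.36 and OIP5-AS1 in HT at -0.25. DANCR rose in WSU-DLCL2 at 0.40. The falls of CRNDE, DLEU1 and OIP5-AS1 were called under both other scalings, that of DANCR was not after quantile normalization and its rise was not at equal medians. The genes named here were picked after their values were seen. These values of MALAT1, MIAT and TAPT1-AS1 were called under both other scalings, as were the HCP5 ones of KARPAS-422 and SU-DHL-10.

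Genes with symbols that end in AS and a digit, antisense to a named gene, numbered 781, of which 442 were tested. Rises and falls were 70 and 7 in KARPAS-422, 49 and 9 in WSU-DLCL2, 33 and 7 in SU-DHL-10, 29 and 2 in SU-DHL-6, 28 and 18 in Pfeiffer, 8 and 3 in HT, 6 and 0 in DB, 3 and 0 in OCI-LY-19, 3 and 1 in SU-DHL-4 and 0 in Toledo. Of all genes tested 15.5% rose and 13.4% fell in KARPAS-422, 13.9% and 12.7% in WSU-DLCL2 and 11.0% and 7.16% in SU-DHL-10. These shares were 7.42% and 3.56% in SU-DHL-6, 14.6% and 9.93% in Pfeiffer, 6.31% and 3.0% in HT and 2.5% and 0.618% in DB. They were 1.97% and 0.44% in OCI-LY-19, 2.14% and 0.454% in SU-DHL-4 and 0.138% and 0.0263% in Toledo. At equal medians Pfeiffer had 14 and 26, SU-DHL-10 14 and 21 and WSU-DLCL2 16 and 19. Under that scaling 6.42% of all genes rose and 14.5% fell in Pfeiffer, 5.13% and 21.8% in SU-DHL-10 and 5.46% and 24.3% in WSU-DLCL2. Of the 718 LINC genes that missed the level rule 201 were tested. They gave 8 rises and 3 falls in KARPAS-422, 7 and 6 in Pfeiffer, 6 and 1 in WSU-DLCL2, 4 and 1 in SU-DHL-6, 2 and 1 in SU-DHL-10, 0 and 1 in HT, 0 and 1 in DB and 0 in the rest. The shares of all genes without rescaling, given above for each line, stand beside these counts as well.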
